A study of Mus musculus with 18 samples.

Results

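The 42 genes that carry glucose and glycogen carbon to pyruvate, lactate and acetyl-CoA were followed in mouse heart muscle cells. They were taken from a list of glucose transporters, glycolytic enzymes, lactate genes, mitochondrial pyruvate genes and glycogen genes, and matched by Ensembl identifier. All 42 of 42 listed genes were present among the 12048 genes measured in every library. RNA-seq had been run on cardiomyocytes of Mlc2vcre:R26REYFP mice, in which the promoter of the ventricular Myl2 gene drives Cre, and Cre turns on a yellow reporter protein from the Rosa26 locus. Cells with 1 nucleus (mononucleated) and cells with 2 nuclei (binucleated) had been separated by flow sorting on a late embryonic day (E18.5), on a postnatal day (P7) and in adult hearts. Each of the 6 groups had 3 libraries, 18 in all. Every group carried both alleles and the labels name no treatment. The strain, the sex, the age of the adults and the sorting gate for nuclei do not stand in the labels. Nor do they say whether a library came from 1 heart or from pooled hearts, and the p-values therefore reflect how much these libraries varied, part of which may be technical.

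Glycolysis cuts glucose into pyruvate in the cytosol. Pyruvate is then either reduced to lactate or carried into mitochondria, where the pyruvate dehydrogenase complex turns it into acetyl-CoA under the brake of the pyruvate dehydrogenase kinases. Glycogen is the cell's own glucose store. The fetal heart is known to rely on glucose and lactate and the adult heart mainly on fatty acids, and many glycolytic steps have several isoforms, some typical of muscle and others of liver, brain or growing cells.

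The deposited values are log2 counts scaled by 1 factor per library, and the whole read counts behind them could be recovered. Between 14833334 and 22690952 counts were recovered per library. Levels below are counts per 1000000, scaled by the deposited factors (CPM), given for replicates 1, 2 and 3 in that order. Differences are log2 fold changes with their standard error (SE, n = 3 libraries per group) from limma fitted to all genes and all 18 libraries, and a gene is called at a Benjamini-Hochberg adjusted p under 0.05 over the 12048 genes. The summed CPM of 10 cardiomyocyte markers, among them Myl2, Myh6 and Tnnt2, was 32147 to 59207 in the libraries, and none of the 10 was at 0. Binucleated E18.5 libraries also held more transcripts of other cells. Their 9 fibroblast markers summed to 342 to 944 CPM against 66.04 to 117 in mononucleated E18.5 cells, their 10 endothelial markers to 57.2 to 124 against 15.1 to 32.8, and their leukocyte markers to 4.46 to 10.3 against 0 to 0.803, with Laptm5, C1qb and C1qc at 0 in the mononucleated cells. The same comparison gave 101 to 177 CPM against 38.5 to 67.3 for 5 erythroid markers. The 7 pericyte and smooth muscle markers overlapped, at 1317 to 1682 against 1418 to 1521. Atrial markers summed to 534 to 778 CPM at E18.5 and to 7.57 to 45.001 in the adult among mononucleated cells. In binucleated cells they summed to 566 to 1466, with replicate 1 highest, and to 2.13 to 7.66. Immediate early genes, which respond to tissue handling, summed to 4085 to 5837 and 3761 to 6395 CPM in the 2 adult groups and to at most 2548 in the younger libraries. Other lists moved with age too. From P7 to the adult the endothelial markers went from 9.93 to 22.97 CPM up to 77.4 to 110.3 and the leukocyte markers from 0.175 to 1.11 up to 4.42 to 7.22. From E18.5 to the adult the summed cardiomyocyte markers went from 32147 to 38239 CPM up to 55544 to 59207, and 5 erythroid markers from 38.5 to 177 down to 0.059 to 11.2. The part of all these transcripts in the age steps was not tested. Replicate 1 of the binucleated E18.5 group stood apart from the other libraries. It had the lowest total, and its deviation from the mean of replicates 2 and 3 ran with transcript length over the 42 genes, with long transcripts low and short ones high (Spearman rho = −0.827, a description over genes of 1 library), against −0.472 over 11927 genes. The fit shares 1 estimate of spread over all groups, so leaving this library out also changed calls in comparisons that do not contain it, and the genes concerned are named after the counts of calls.

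With age the proportions of isoforms shifted at most steps of the pathway, as the gene by gene values below show. Between E18.5 and P7, 5 of the 42 genes rose and 17 fell in mononucleated cells, where 10.7% of all genes rose and 7.84% fell. In binucleated cells 14 rose and 14 fell, against 18.2% and 17.7% of all genes. Without replicate 1 of the binucleated E18.5 group these counts were 12 and 22 in mononucleated cells and 19 and 16 in binucleated cells, where 32.4% and 41.8% of all genes were called. Between P7 and the adult, 19 rose and 7 fell in mononucleated cells (19.1% and 22.3% of all genes), and 16 rose and 7 fell in binucleated cells (17.3% and 19.7%). The median log2 fold change of the 42 genes was −0.26 and 0.02 in the first step and 0.48 and 0.40 in the second, in mononucleated and binucleated cells in turn, while the median of all genes lay between −0.03 and 0.03. The classes share no libraries within a step. Of the genes that fell from E18.5 to P7, 13 were called in both classes, which is 76.5% of the mononucleated list and 92.9% of the binucleated list, where over all genes the shares were 76.5% and 33.9%. Of those that rose 5 were called in both, 100% of the mononucleated list and 35.7% of the binucleated list, against 74.3% and 43.5% over all genes. From P7 to the adult 14 genes rose in both classes (73.7% and 87.5% of the lists, against 77.9% and 86% over all genes) and 6 fell in both (85.7% of each list, against 75.7% and 85.7%). No gene was called in opposite directions in the 2 classes.

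Several genes that were not called with all 18 libraries passed without replicate 1 of the binucleated E18.5 group. In mononucleated cells, whose fold changes do not move with that library, the first step was then also called higher for Mpc1, Mpc2, Pdha1, Dlat, Dld, Pdk2 and Pygm and lower for Hk1, Aldoa, Gapdh, Pkm and Gbe1. In binucleated cells it was also called higher for Hk2, Pgam2, Ldhb, Mpc1 and Mpc2 and lower for Hk1, Pfkl, Gys1 and Gbe1, while Tpi1 and Pfkfb1 were lost. The second step counted 26 higher and 8 lower in mononucleated cells and 23 and 8 in binucleated cells, where 53.8% and 50.3% of all genes were called. The genes added there were Gpi1, Pfkl, Pgam2, Pdhb, Pdk1, Pygb and Gbe1 (higher) and Ldha (lower) in mononucleated cells, and Pfkl, Gapdh, Mpc2, Gys1, Gbe1, Phka1 and Phkb (higher) and Pfkp (lower) in binucleated cells. A gene given as not called in 1 class is therefore not shown to differ between the classes.

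**Figure D1:**
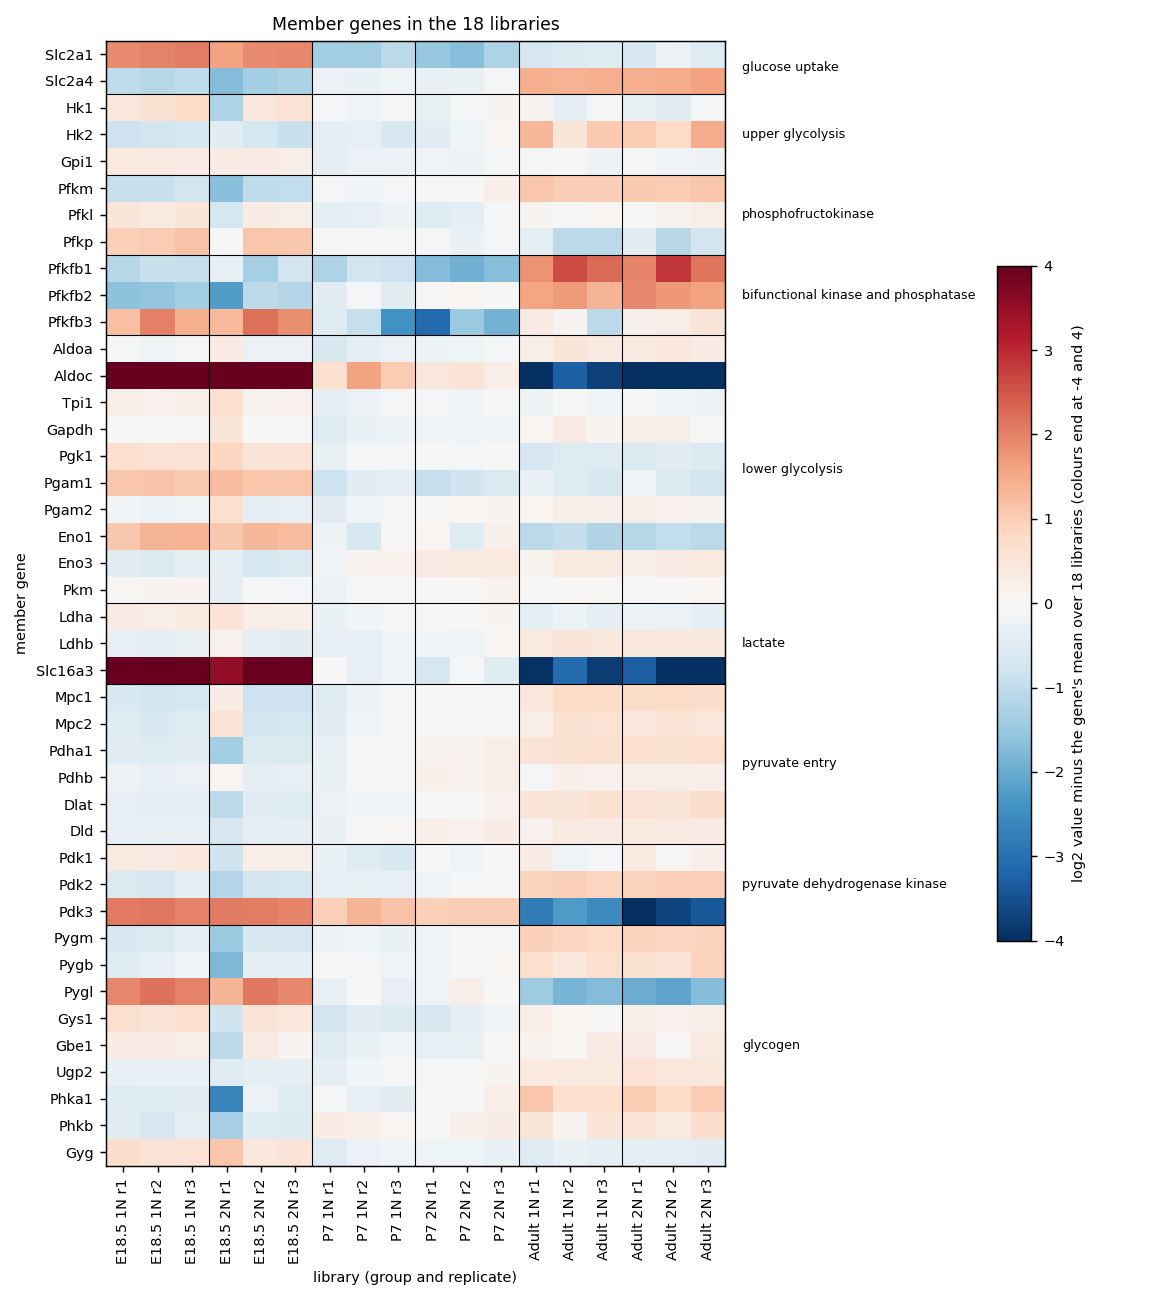
Level of each of the 42 genes (rows, grouped by role) in each of the 18 libraries (columns), as the deposited log2 value minus the gene's mean over all libraries, with colours that end at −4 and 4. Slc2a1, Aldoc, Slc16a3, Pdk3 and Pygl are high in every E18.5 library, Slc2a4, Pfkm, Pfkfb1 and Pfkfb2 are high in every adult library, and replicate 1 of the binucleated E18.5 group differs in shade from its neighbours for many genes.

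How many genes rose depended on the scaling between libraries. The deposited factors put the effective library size at 1.06 to 1.18 times the recovered total at E18.5 and at 0.847 to 0.870 times in the adult. Scaling by the total count instead, an alternative added after the data were seen, moved the median of all genes from P7 to the adult to −0.32 in mononucleated and −0.25 in binucleated cells, and the split of calls from 19 higher and 7 lower to 13 and 9, and from 16 and 7 to 11 and 11. Quantile normalization gave 9 higher and 14 lower and 8 and 13 for the same comparisons. For P7 against E18.5 in binucleated cells the split of 14 and 14 became 8 and 17 with quantile normalization and 10 and 16 with the total count, which moved the median of all genes to −0.16. Calls that held under quantile normalization, median centring and total count scaling numbered 19 of 22 and 19 of 28 in the first step and 14 of 26 and 14 of 23 in the second. A ratio of 2 genes within a library does not move when all its counts are scaled by the same factor. Isoform pairs were therefore also compared by the log2 ratio of their counts. Quantile normalization can move such a ratio, and the ratios were not computed under it. Of 15 pairs, 13 shifted between E18.5 and P7, 13 between P7 and the adult and 14 between E18.5 and the adult (exact permutation test of 6 libraries against 6, two-sided, Benjamini-Hochberg adjusted over 45 tests). Pairs of other genes were not tested, so no share over all genes stands beside these counts. Pfkm, Pfkfb2, Pdk2 and Pygm each enter 2 pairs. Mpc2 and Mpc1, counted among the pairs, are subunits of the same carrier and not isoforms. The smallest p this test can give is 0.00216, or 0.00263 after adjustment, and it counts mononucleated and binucleated libraries separately. At P7 and in the adult libraries with the same replicate number deviated together, so the 6 may not be fully independent, and 3 against 3 cannot go below 0.1.

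Both glucose transporter genes were called at both steps. Slc2a1 encodes GLUT1, the transporter that brings in glucose without insulin. In mononucleated cells Slc2a1 stood at 169, 181 and 188 at E18.5, 17.8, 17.3 and 21.5 at P7 and 28.7, 31.3 and 32.999 in the adult. In binucleated cells it stood at 140.0, 171 and 174 at E18.5, 16.1, 14.1 and 19.4 at P7 and 29.5, 38.7 and 31.7 in the adult. Every P7 library lay below every E18.5 library of its class, and the adult libraries lay between the 2 earlier ages. Slc2a1 fell from E18.5 to P7 by a log2 fold change of −3.25 ± 0.15 in mononucleated and −3.29 ± 0.15 in binucleated cells (limma adjusted p = 6.93e-10 and 2.89e-10) and rose from P7 to the adult by 0.72 ± 0.15 and 1.01 ± 0.15 (limma adjusted p = 9.90e-04 and 5.30e-05). Slc2a4 encodes GLUT4, the transporter that insulin and contraction move to the cell surface. Its CPM was 169.5, 156 and 172 at E18.5, 296, 288 and 307 at P7 and 943, 899 and 936 in the adult in mononucleated cells. The binucleated values were 104, 134 and 142 at E18.5, 284, 281 and 329.6 at P7 and 947, 962 and 1054 in the adult. The 3 ages did not overlap in either class. Slc2a4 rose by 0.84 ± 0.11 and 1.24 ± 0.11 in the first step (limma adjusted p = 5.61e-05 and 5.51e-07) and by 1.64 ± 0.11 and 1.73 ± 0.11 in the second (limma adjusted p = 1.25e-08 and 8.56e-09). Counted per kilobase of transcript, Slc2a4 made up 54.4% ± 1.87 (SD, n = 3) of the pair in mononucleated cells at E18.5, 95.3% ± 0.405 at P7 and 97.5% ± 0.196 in the adult, and 50.3% ± 1.14, 95.9% ± 0.316 and 97.5% ± 0.408 in binucleated cells. The ratio of Slc2a4 to Slc2a1 was 19.9-fold higher at P7 than at E18.5 and 1.77-fold higher in the adult than at P7 (exact permutation test, adjusted p = 0.00263 for each, which is the smallest possible). All calls for both transporters held under the 3 other scalings.

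Hexokinases trap glucose in the cell as glucose phosphate. Hk1, the form found in most tissues, had 704, 784 and 895 at E18.5, 496, 467 and 515 at P7 and 558, 397 and 488 CPM in the adult in mononucleated cells. Binucleated cells gave 219.9, 714 and 779.8 at E18.5, 423, 486 and 558 at P7 and 423, 382 and 486 CPM in the adult for Hk1, where replicate 1 at E18.5 was far below the other libraries of that age. No step of Hk1 was called (log2 fold changes −0.68 and −0.03, then −0.05 and −0.18). Without that library the first step was called lower in both classes, at −0.68 in mononucleated and −0.62 in binucleated cells (limma adjusted p = 8.456e-04 and 0.00305). Hk2, the form that is typical of insulin-sensitive muscle, had 94.3, 99.5 and 105 at E18.5, 130.3, 134 and 111 at P7 and 422, 237 and 344 CPM in the adult in mononucleated cells. In binucleated cells Hk2 had 124, 104 and 90.4 at E18.5, 125, 149 and 179 at P7 and 338, 296 and 466 CPM in the adult. All adult libraries lay above all P7 libraries. Hk2 rose from P7 to the adult by 1.38 ± 0.20 and 1.27 ± 0.20 (limma adjusted p = 4.70e-05 and 1.28e-04), and these calls held under the other scalings. Its first step was not called (0.33 and 0.50, and 0.62 in binucleated cells without replicate 1, limma adjusted p = 0.0297). Per kilobase Hk1 remained the more abundant of the pair in every group, with 91.9% ± 0.513 of it at E18.5 and 67.7% ± 2.64 in the adult in mononucleated cells and 85.01% ± 11.5 and 62.96% ± 2.72 in binucleated cells. The ratio of Hk2 to Hk1 was 2.72-fold higher in the adult than at P7 (exact permutation test, adjusted p = 0.00263), and its change from E18.5 to P7 did not pass (0.77 on the log2 scale, adjusted p = 0.0760) but did without replicate 1 of the binucleated E18.5 group (1.13, exact permutation test, adjusted p = 0.00263). Gpi1, the isomerase of glucose phosphate, fell in the first step by −0.64 ± 0.09 and −0.43 ± 0.09 and was not called in the second. Its binucleated call was lost with a fit to the binucleated E18.5 and P7 groups alone.

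Phosphofructokinase commits sugar to glycolysis and is built from muscle (Pfkm), liver (Pfkl) and platelet (Pfkp) subunits. Pfkm stood at 462, 461 and 506 at E18.5, 831, 802 and 819.7 at P7 and 1849.8, 1688 and 1699 CPM in the adult in mononucleated cells. In binucleated cells Pfkm stood at 269, 427 and 436 at E18.5, 874, 845 and 997 at P7 and 1767, 1747 and 1837 CPM in the adult. The 3 ages were separate in both classes. Pfkm rose by 0.78 ± 0.14 and 1.29 ± 0.14 in the first step (limma adjusted p = 0.00109 and 5.26e-06) and by 1.09 ± 0.14 and 0.98 ± 0.14 in the second (limma adjusted p = 1.44e-05 and 5.07e-05). Pfkl had 580.5, 539 and 581 at E18.5, 316, 327 and 357 at P7 and 439, 415 and 433 CPM in the adult in mononucleated and 252, 508 and 487 at E18.5, 293, 318 and 398 at P7 and 408, 449.7 and 496 CPM in the adult in binucleated cells. It was lowest at P7 in mononucleated cells, where its first step was called (−0.77 ± 0.20, limma adjusted p = 0.0116). In binucleated cells that step was −0.25 and not called, and −0.58 without replicate 1 (limma adjusted p = 6.30e-04). Pfkp had 540.5, 565 and 616 at E18.5, 269, 268 and 270.2 at P7 and 209.7, 134 and 132 CPM in the adult in mononucleated cells. Its binucleated values were 282, 598 and 587 at E18.5, 261, 230.4 and 267 at P7 and 206, 127 and 165 CPM in the adult. The 3 ages of Pfkp were separate in mononucleated cells, with E18.5 highest. Pfkp fell by −1.09 ± 0.25 and −0.87 ± 0.25 in the first step and by −0.80 ± 0.25 in mononucleated cells in the second (limma adjusted p = 0.00494, 0.0115 and 0.0159), while the second step in binucleated cells, −0.63, was not called. The first-step call of Pfkp in binucleated cells was lost with a fit to the binucleated E18.5 and P7 groups alone. Per kilobase the 3 subunits were close to equal in mononucleated cells at E18.5, with 36.3% ± 0.327 Pfkm, 33.3% ± 1.31 Pfkl and 30.4% ± 1.01 Pfkp. In the adult Pfkm made up 79.8% ± 0.535 in mononucleated and 79.4% ± 0.679 in binucleated cells, and Pfkp 4.999% ± 1.08 and 5.13% ± 1.20. The ratio of Pfkm to Pfkp was 4.05-fold higher at P7 than at E18.5 and 3.36-fold higher in the adult than at P7, and that of Pfkm to Pfkl 2.92-fold and 1.56-fold (exact permutation test, adjusted p = 0.00263 for all 4).

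The Pfkfb genes encode enzymes with a kinase part and a phosphatase part, which make and break the sugar bisphosphate that activates phosphofructokinase. Pfkfb2 rose at both steps, Pfkfb1 rose after P7, and Pfkfb3 fell before it. Pfkfb1, the liver and muscle form, had 3.63, 4.32 and 4.20 at E18.5, 3.43, 4.71 and 4.48 at P7 and 27.9, 48.7 and 38.4 CPM in the adult in mononucleated cells. In binucleated cells Pfkfb1 had 6.37, 3.18 and 4.67 at E18.5, 2.42, 2.11 and 2.42 at P7 and 31.5, 58.1 and 35.3 CPM in the adult. Every adult library was above every younger library, and at P7 the binucleated libraries were below the mononucleated ones. Pfkfb1 rose from P7 to the adult by 3.16 ± 0.29 and 4.10 ± 0.29 (limma adjusted p = 2.51e-07 and 1.69e-08). Its fall from E18.5 to P7 in binucleated cells (−0.97 ± 0.29, limma adjusted p = 0.0153) was −0.73 without replicate 1 (limma adjusted p = 0.0524). Pfkfb2, the heart form, stood at 13.1, 13.8 and 15.9 at E18.5, 30.3, 38.96 and 30.6 at P7 and 121, 133 and 105 CPM in the adult in mononucleated cells. Binucleated Pfkfb2 stood at 8.59, 19.8 and 18.1 at E18.5, 42.4, 43.7 and 40.3 at P7 and 156, 136 and 124 CPM in the adult. The ages did not overlap. Pfkfb2 rose by 1.22 ± 0.23 and 1.53 ± 0.23 in the first step and by 1.85 ± 0.23 and 1.71 ± 0.23 in the second (limma adjusted p = 0.00154, 1.16e-04, 9.62e-06 and 2.57e-05). The exons of Pfkfb2 share bases with another annotated gene on the same strand, as do those of Pfkm and Pkm, so the counts of these genes are less certain. Pfkfb3, the inducible form whose kinase part prevails, had 7.48, 12.96 and 8.76 at E18.5, 2.26, 1.68 and 0.582 at P7 and 4.06, 3.46 and 1.53 CPM in the adult in mononucleated cells. In binucleated cells it had 8.02, 14.9 and 11.8 at E18.5, 0.353, 1.12 and 0.845 at P7 and 3.72, 3.80 and 4.48 CPM in the adult. Every P7 library lay below every E18.5 library. Pfkfb3 fell in the first step by −2.83 ± 0.51 and −3.96 ± 0.51 (limma adjusted p = 8.78e-04 and 2.26e-05) and rose in the second in binucleated cells by 2.47 ± 0.51 (limma adjusted p = 0.00111), with 1.08 ± 0.51 in mononucleated cells not called. Per kilobase Pfkfb2 had the largest mean share of the 3 in each group. In mononucleated cells it was 42.4% ± 4.53 at E18.5, 73.2% ± 1.17 at P7 and 54.7% ± 6.12 in the adult, with Pfkfb1 at 30.5% ± 0.916, 23.6% ± 2.89 and 43.9% ± 6.69. The order was not the same in every binucleated library. Pfkfb1 reached 49.9% there at E18.5 and 51.5% in the adult, with Pfkfb2 as low as 26.5% and 47.3%. The ratio of Pfkfb2 to Pfkfb1 was therefore highest at P7. It rose 3.57-fold from E18.5 to P7 and fell 3.61-fold from P7 to the adult (exact permutation test, adjusted p = 0.00263 for each), and adult and E18.5 ratios overlapped (adjusted p = 0.978). The ratio of Pfkfb2 to Pfkfb3 was 27.2-fold higher at P7 than at E18.5 (exact permutation test, adjusted p = 0.00263) and its further change did not pass (adjusted p = 0.996).

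**Figure D2:**
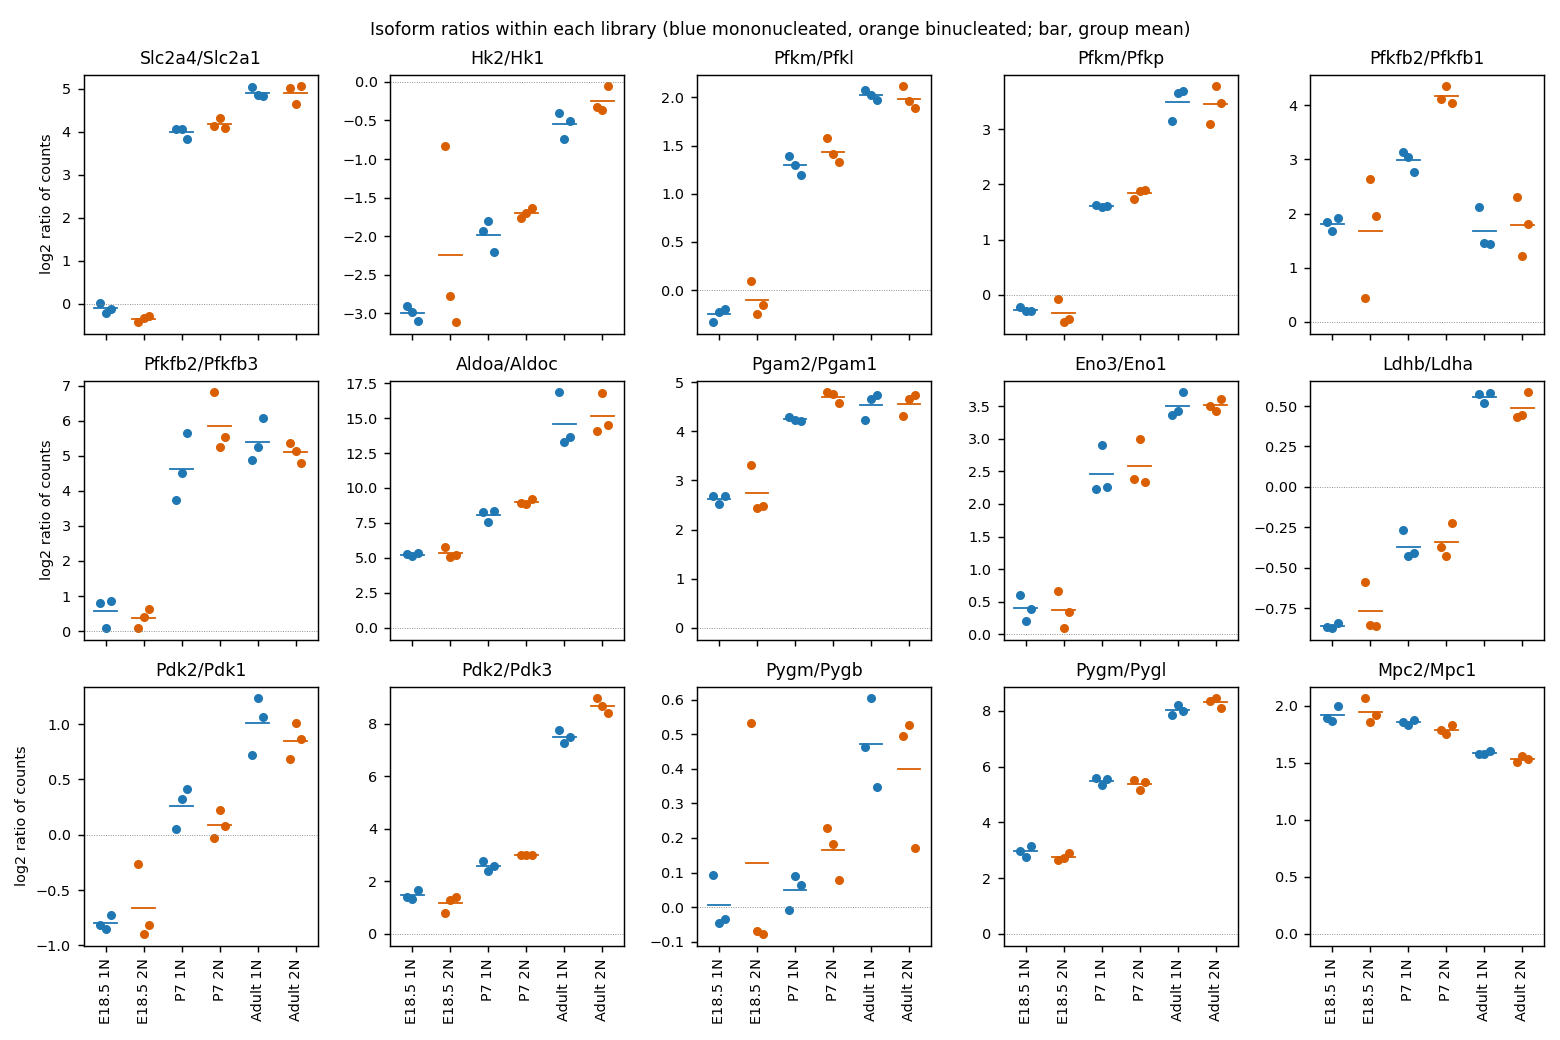
Log2 ratio of the counts of 2 genes within each library (y axis, first named gene over second) for the 15 pairs in the 6 groups (x axis), each point 1 library and each bar the mean of 3. The ratios of Slc2a4 to Slc2a1, Pfkm to Pfkp and Pygm to Pygl climb at both steps, that of Pfkfb2 to Pfkfb1 peaks at P7, and replicate 1 of the binucleated E18.5 group is the point that lies apart in several panels.

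In lower glycolysis Aldoc, Pgam1 and Eno1 fell in the first step in both classes, and Pgam2 and Pkm were called in no step with all 18 libraries. Aldolases split the sugar bisphosphate. Aldoa, the muscle form, had 2611, 2435 and 2665 at E18.5, 1786, 2125 and 2352 at P7 and 3219, 3881 and 3509.9 CPM in the adult in mononucleated cells. In binucleated cells Aldoa had 3481, 2346 and 2334 at E18.5, 2406, 2429 and 2650.0 at P7 and 3558, 3694 and 3377 CPM in the adult, with replicate 1 at E18.5 above its group. Adult libraries lay above P7 libraries in both classes. Aldoa rose in the second step by 0.77 ± 0.15 and 0.51 ± 0.15 (limma adjusted p = 5.41e-04 and 0.0123), calls that did not hold under quantile normalization. Aldoc, the brain form, stood at 68.6, 68.9 and 66.8 at E18.5, 5.69, 11.2 and 7.27 at P7 and 0, 0.346 and 0.245 CPM in the adult in mononucleated cells. Binucleated cells gave 62.3, 69.2 and 61.8 at E18.5, 4.996, 5.27 and 4.39 at P7 and 0.177, 0 and 0.115 CPM in the adult for Aldoc. The 3 ages were separate by a wide margin, and in the adult 1 library of each class held no Aldoc count. Aldoc fell by −3.13 ± 0.76 and −3.71 ± 0.76 in the first step (limma adjusted p = 0.00801 and 0.00130) and was lower again in the adult (limma adjusted p = 1.40e-05 and 2.27e-05). The adult groups held 9 and 5 Aldoc counts in all, so the size of the second fall is better given as a ratio of summed counts with its 95% exact interval, which covers counting error only. It was 43.9-fold (22.9 to 96.5) in mononucleated and 48.2-fold (20.4 to 149.6) in binucleated cells. Per kilobase Aldoc made up 1.42% ± 0.0858 of the 2 aldolases in mononucleated cells at E18.5 and 0.209% ± 0.0669 at P7. The ratio of Aldoa to Aldoc was 9.31-fold higher at P7 than at E18.5 and again higher in the adult than at P7, without overlap (exact permutation test, adjusted p = 0.00263 for each).

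Phosphoglycerate mutase and enolase also have muscle forms (Pgam2, Eno3) and widely expressed forms (Pgam1, Eno1). Pgam1 had 137, 142 and 132 at E18.5, 35.95, 47.3 and 50.04 at P7 and 52.9, 44.7 and 41.1 CPM in the adult in mononucleated cells. In binucleated cells Pgam1 had 149, 138 and 138 at E18.5, 33.8, 37.1 and 43.05 at P7 and 57.4, 42.9 and 38.5 CPM in the adult. P7 lay below E18.5 in both classes, and P7 and adult libraries overlapped. Pgam1 fell in the first step by −1.64 ± 0.16 and −1.91 ± 0.16 (limma adjusted p = 2.08e-06 and 2.49e-07). Pgam2 had 878, 813 and 851 at E18.5, 703, 887 and 931 at P7 and 999.7, 1127 and 1094 CPM in the adult in mononucleated and 1481, 749.9 and 765 at E18.5, 938, 1006 and 1022 at P7 and 1137, 1079 and 1032 CPM in the adult in binucleated cells. No step of Pgam2 was called, with log2 fold changes between −0.02 and 0.36, except that without replicate 1 the first step in binucleated cells was 0.38 and the second in mononucleated cells 0.36 (limma adjusted p = 0.00620 and 0.00296). Per kilobase Pgam2 made up 92.9% ± 0.433 of the mutases in mononucleated cells at E18.5, 97.6% ± 0.0616 at P7 and 97.99% ± 0.377 in the adult. The ratio of Pgam2 to Pgam1 was 3.46-fold higher at P7 than at E18.5 (exact permutation test, adjusted p = 0.00263), and its second step did not pass (adjusted p = 0.615). Eno1 stood at 954, 1157 and 1191 at E18.5, 389, 291 and 471 at P7 and 212, 235 and 194 CPM in the adult in mononucleated cells. In binucleated cells Eno1 stood at 956, 1138 and 1053 at E18.5, 479, 320.1 and 515 at P7 and 204, 226 and 215 CPM in the adult. Each age was below the age before it, without overlap. Eno1 fell by −1.54 ± 0.18 and −1.29 ± 0.18 and then by −0.82 ± 0.18 and −0.999 ± 0.18 (limma adjusted p = 1.49e-05, 5.14e-05, 0.00167 and 3.60e-04). Eno3 had 1448, 1339 and 1565 at E18.5, 1827, 2175 and 2249.7 at P7 and 2182, 2543 and 2550.1 CPM in the adult in mononucleated cells. Its binucleated values were 1522, 1218 and 1335 at E18.5, 2509.8, 2564 and 2614 at P7 and 2299, 2433 and 2635 CPM in the adult. P7 lay above E18.5 in both classes, and P7 and adult overlapped. Eno3 rose in the first step by 0.52 ± 0.12 and 0.92 ± 0.12 (limma adjusted p = 0.00492 and 1.96e-05). With quantile normalization the rise in mononucleated cells was 0.29 and not called (limma adjusted p = 0.0666). Per kilobase Eno3 made up 63.1% ± 3.15 of the enolases at E18.5, 87.5% ± 2.68 at P7 and 93.6% ± 0.746 in the adult in mononucleated cells and 62.5% ± 4.63, 88.4% ± 2.45 and 93.7% ± 0.391 in binucleated cells. The ratio of Eno3 to Eno1 was 4.39-fold higher at P7 than at E18.5 and 1.98-fold higher in the adult than at P7 (exact permutation test, adjusted p = 0.00263 for each).

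The remaining enzymes of lower glycolysis have 1 main gene each. Pgk1, a kinase that makes ATP, fell at both steps, by −0.75 and −0.64 and then by −0.42 and −0.51, and the last fall in mononucleated cells was lost with median centring. Tpi1, the triose isomerase, fell in the first step by −0.47 and −0.39. The call in mononucleated cells was lost with median centring (limma adjusted p = 0.0579) and that in binucleated cells without replicate 1 (limma adjusted p = 0.0581). Gapdh, often taken as a reference gene, rose from P7 to the adult in mononucleated cells by 0.49 ± 0.14 (limma adjusted p = 0.00795), but the sign turned to −0.092 with quantile normalization. Pkm, the pyruvate kinase gene, was called in no step with all libraries (−0.21, 0.21, 0.14 and −0.03), but its first step in mononucleated cells passed without replicate 1 of the binucleated E18.5 group (limma adjusted p = 0.0214). The 2 splice forms of Pkm cannot be told apart in counts per gene. Aldoa, Tpi1, Gapdh, Pgk1, Pgam1, Eno1, Pkm and Ldha have processed copies elsewhere in the mouse genome, and the sources do not say how reads shared with such copies were treated. Per kilobase of transcript the order of the 42 genes also changed. In mononucleated cells at E18.5 Aldoa (1701 ± 79.6 CPM per kilobase, SD, n = 3) and Ldha (1493 ± 42.8) came first, and Ldhb (1114 ± 43.1), Gapdh (1062 ± 30.2), Tpi1 (1057 ± 39.7) and Pgam2 (1009 ± 38.8) followed close together. In adult mononucleated cells Aldoa (2341 ± 219.5) was again first, followed by Ldhb (1922 ± 89.3), Eno3 (1551 ± 135), Pgam2 (1278 ± 78.4) and Gapdh (1195 ± 106), the last 2 closer than their spread. Aldoc (0.0707 ± 0.0638) and Slc16a3 (0.135 ± 0.0490) came last in the adult.

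**Figure D3:**
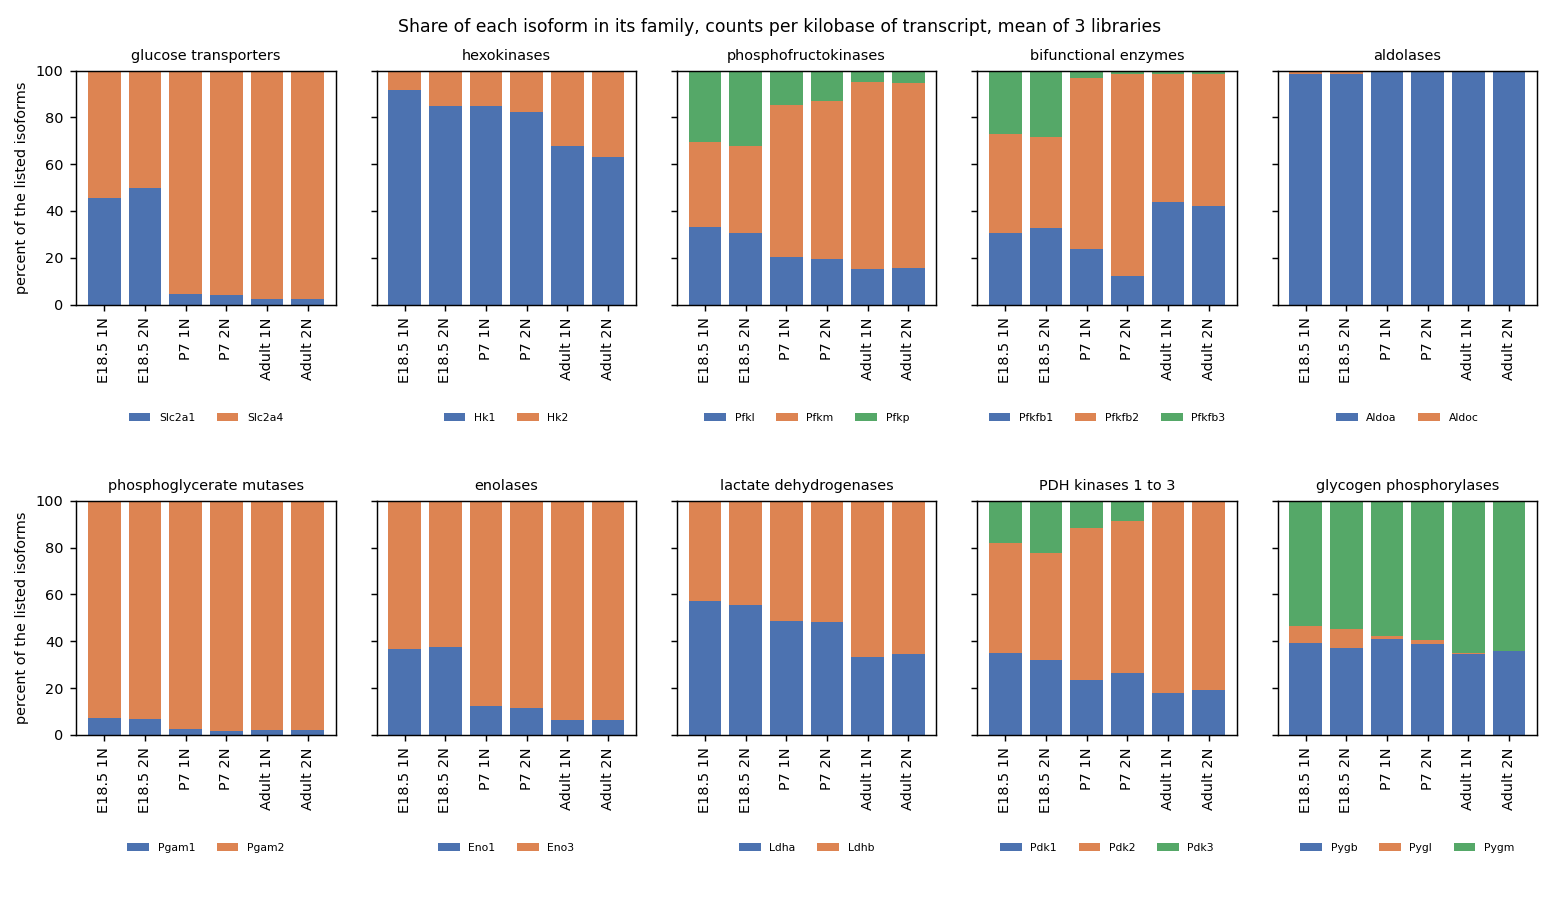
Share of each isoform in its family (y axis, percent of the summed counts per kilobase of the isoforms drawn) in the 6 groups (x axis), each bar the mean of 3 libraries. Slc2a4, Pfkm, Eno3, Ldhb and Pdk2 take a larger share at each age of the isoforms drawn, whereas Hk1 remains above Hk2 and Pygb stays near its share in all groups. Pdk2 is drawn among kinases 1 to 3, without Pdk4.

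At the lactate branch Slc16a3 fell furthest of the genes followed, which were Ldha, Ldhb and Slc16a3. Ldha and Ldhb encode the subunits of lactate dehydrogenase that prevail in skeletal muscle and in heart. Ldha had 2655, 2554 and 2701 at E18.5, 1757, 1954 and 2197 at P7 and 1616, 1837 and 1661 CPM in the adult in mononucleated cells. In binucleated cells Ldha had 3072, 2541 and 2462 at E18.5, 2195, 2170.5 and 2268 at P7 and 1838, 1814 and 1646 CPM in the adult. The E18.5 libraries were highest in both classes. Ldha fell by −0.43 ± 0.11 in the first step in mononucleated cells (limma adjusted p = 0.0127) and by −0.33 ± 0.11 in the second in binucleated cells (limma adjusted p = 0.0304, lost with median centring). Ldhb had 1455, 1396 and 1508 at E18.5, 1462, 1449.8 and 1652 at P7 and 2402, 2632 and 2485 CPM in the adult in mononucleated cells. Its binucleated values were 2046, 1404 and 1356 at E18.5, 1694, 1615 and 1945 at P7 and 2484, 2464 and 2469 CPM in the adult. All adult libraries lay above all P7 libraries. Ldhb rose in the second step by 0.72 ± 0.13 and 0.50 ± 0.13 (limma adjusted p = 4.13e-04 and 0.00759), which did not hold in either class under quantile normalization. The ratio of their counts, which a factor per library does not move, was −0.87 to −0.59 on the log2 scale at E18.5, −0.43 to −0.22 at P7 and 0.43 to 0.58 in the adult. It rose 1.37-fold and then 1.84-fold (exact permutation test, adjusted p = 0.00263 for each). Per kilobase Ldhb passed from 42.7% ± 0.285 of the 2 subunits at E18.5 to 66.6% ± 0.523 in the adult in mononucleated cells and from 44.3% ± 2.69 to 65.5% ± 1.32 in binucleated cells. Slc16a3 encodes MCT4, a transporter known for lactate export. Slc16a1 and Slc16a7 were not followed here but are counted among the further genes below. Mean CPM of Slc16a1 was 577 at E18.5, 579 at P7 and 853 in the adult in mononucleated cells. In binucleated cells it was 454, 677 and 862. Slc16a7 had 14.6, 32.6 and 14.7 in mononucleated and 16.0, 24.9 and 11.9 in binucleated cells. Lactate transport as a whole was not tested. Slc16a3 stood at 127, 164 and 135 at E18.5, 7.21, 5.69 and 6.69 at P7 and 0.439, 0.830 and 0.490 CPM in the adult in mononucleated cells. In binucleated cells it stood at 83.8, 141 and 131 at E18.5, 4.49, 6.76 and 5.18 at P7 and 0.709, 0.333 and 0.230 CPM in the adult. The ages were separate in both classes. Slc16a3 fell by −4.44 ± 0.34 and −4.41 ± 0.34 in the first step (limma adjusted p = 1.65e-07 and 1.02e-07) and by −3.46 ± 0.34 and −3.72 ± 0.34 in the second (limma adjusted p = 7.00e-07 and 3.90e-07). From summed counts the second fall was 11.4-fold (7.80 to 17.4, 95% exact interval) in mononucleated cells, with 403 counts at P7 and 28 in the adult, and 12.7-fold (8.15 to 20.8) in binucleated cells, with 290 and 21.

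Pyruvate enters mitochondria through a carrier made of Mpc1 and Mpc2, and the pyruvate dehydrogenase complex (Pdha1, Pdhb, Dlat, Dld) turns it into acetyl-CoA. None of these 6 genes fell at either step. Mpc1 had 96.2, 88.2 and 88.4 at E18.5, 103, 125 and 139 at P7 and 199.6, 253 and 244 CPM in the adult in mononucleated and 178, 81.5 and 81.2 at E18.5, 143, 149.9 and 143 at P7 and 239.9, 249 and 236 CPM in the adult in binucleated cells. Mpc2 had 356, 322 and 353 at E18.5, 374, 447 and 507 at P7 and 596, 757 and 739.8 CPM in the adult in mononucleated and 746, 296 and 307 at E18.5, 495, 504 and 507 at P7 and 681, 732 and 684 CPM in the adult in binucleated cells. Replicate 1 of the binucleated E18.5 group was above its group for both genes, and adult libraries lay above P7 libraries throughout. Mpc1 rose from P7 to the adult by 0.93 ± 0.22 and 0.73 ± 0.22 (limma adjusted p = 0.00296 and 0.0151) and Mpc2 in mononucleated cells by 0.66 ± 0.25 (limma adjusted p = 0.0415, and 0.0567 with the replicate number as a block). Their first step was not called, but without replicate 1 it was called for both genes in both classes. Mpc1 then had 0.42 in mononucleated and 0.84 in binucleated cells (limma adjusted p = 0.00536 and 3.48e-05), and Mpc2 0.36 and 0.73 (limma adjusted p = 0.0144 and 1.08e-04). The second step of Mpc2, and that of Mpc1 in binucleated cells, was lost with quantile normalization. The ratio of Mpc2 to Mpc1 fell by 0.11 and then by 0.26 on the log2 scale (exact permutation test, adjusted p = 0.0125 and 0.00263). Pdha1, the catalytic subunit, stood at 892, 840.3 and 873 at E18.5, 1005, 1192 and 1142 at P7 and 1723, 1835 and 1886 CPM in the adult in mononucleated cells. In binucleated cells Pdha1 stood at 472, 804 and 808 at E18.5, 1336, 1333 and 1444 at P7 and 1930.1, 1851 and 1898 CPM in the adult. Here the ages were separate in both classes. Pdha1 rose in binucleated cells by 1.02 ± 0.16 in the first step (limma adjusted p = 1.14e-04), while 0.35 ± 0.16 in mononucleated cells was not called, and by 0.71 ± 0.16 and 0.47 ± 0.16 in the second. Without replicate 1 the first step was called in both classes, with 0.77 in binucleated and the same 0.35 in mononucleated cells (limma adjusted p = 9.638e-04 for the latter). The second step of Pdha1 was lost in both classes under quantile and total count scaling, and in binucleated cells also without any of 5 of the 6 libraries compared. Pdhb, Dlat and Dld rose in binucleated cells in the first step (0.41, 0.74 and 0.70) and were not called in mononucleated cells (0.16, 0.20 and 0.22). The 3 binucleated calls were lost with quantile normalization, and without replicate 1 Dlat and Dld passed in mononucleated cells too (limma adjusted p = 0.0422 and 0.0333). In the second step Dlat rose in both classes (0.71 and 0.52) and Dld in mononucleated cells (0.38). With quantile normalization both calls of Dlat were lost and the sign of Dld turned to −0.19, and with total count scaling Dlat in binucleated and Dld in mononucleated cells were lost.

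The pyruvate dehydrogenase kinases switch that complex off. Pdk1 had 690.0, 679 and 737 at E18.5, 449.6, 381 and 355 at P7 and 668, 484 and 515 CPM in the adult in mononucleated cells. In binucleated cells Pdk1 had 314, 656 and 632 at E18.5, 553, 486 and 536 at P7 and 693, 565 and 624 CPM in the adult. It was lowest at P7 in mononucleated cells. Pdk1 fell there in the first step by −0.83 ± 0.21 (limma adjusted p = 0.0110) and no other step of it was called. Pdk2 stood at 393, 377 and 447 at E18.5, 467, 477 and 472 at P7 and 1104, 1139 and 1077 CPM in the adult in mononucleated cells. Binucleated Pdk2 stood at 261, 353 and 359.7 at E18.5, 541, 567 and 567 at P7 and 1110.4, 1136 and 1139 CPM in the adult. The ages were separate in both classes. Pdk2 rose in the second step by 1.23 ± 0.11 and 1.02 ± 0.11 (limma adjusted p = 2.65e-07 and 2.62e-06) and in the first in binucleated cells by 0.80 ± 0.11 (limma adjusted p = 5.04e-05, 0.65 without replicate 1), where mononucleated cells gave 0.22, a step that passed without replicate 1 (limma adjusted p = 0.0128). Pdk3 had 150.1, 151 and 140.0 at E18.5, 68.7, 89.995 and 78.5 at P7 and 4.99, 7.33 and 5.9997 CPM in the adult in mononucleated cells. In binucleated cells it had 150.3, 144 and 136 at E18.5, 68.1, 69.8 and 70.3 at P7 and 2.19, 2.73 and 3.33 CPM in the adult. Each age lay below the age before it, and in the adult the binucleated libraries lay below the mononucleated ones. Pdk3 fell by −0.90 ± 0.16 and −1.05 ± 0.16 in the first step and by −3.70 ± 0.16 and −4.66 ± 0.16 in the second (limma adjusted p = 9.58e-04, 1.42e-04, 1.14e-10 and 1.12e-11), all of which held under the other scalings. Per kilobase Pdk3 made up 18.1% ± 1.59 of kinases 1 to 3 at E18.5, 11.5% ± 1.52 at P7 and 0.480% ± 0.0974 in the adult in mononucleated cells, and 22.2% ± 5.59, 8.58% ± 0.116 and 0.208% ± 0.0431 in binucleated cells. Pdk2 went from 46.8% ± 1.82 to 81.8% ± 2.58 in mononucleated cells. The ratio of Pdk2 to Pdk3 was 2.80-fold higher at P7 than at E18.5 and 39.4-fold higher in the adult than at P7, and that of Pdk2 to Pdk1 1.87-fold and 1.68-fold (exact permutation test, adjusted p = 0.00263 for all 4).

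Glycogen genes included a falling liver isoform and rising muscle ones. Phosphorylases release glucose phosphate from glycogen. Pygm, the muscle form, had 844, 862 and 991 at E18.5, 1096, 1134 and 1055 at P7 and 2445, 2324 and 2199.6 CPM in the adult in mononucleated cells. In binucleated cells Pygm had 457, 828 and 798 at E18.5, 1148, 1202 and 1242 at P7 and 2389, 2322 and 2349 CPM in the adult. All adult libraries were above all P7 libraries, and P7 above E18.5. Pygm rose in the second step by 1.08 ± 0.17 and 0.98 ± 0.17 (limma adjusted p = 6.08e-05 and 1.97e-04), which quantile normalization did not keep in either class, and in the first in binucleated cells by 0.84 ± 0.17 (0.56 without replicate 1; lost with quantile normalization). Its first step of 0.29 in mononucleated cells passed without replicate 1 (limma adjusted p = 0.00467). Pygb, the brain form, had 790.2, 889 and 1015 at E18.5, 1102, 1064 and 1009 at P7 and 1775, 1529.7 and 1728 CPM in the adult in mononucleated cells. Its binucleated values were 315, 869 and 841 at E18.5, 980.0, 1058 and 1176 at P7 and 1694, 1611 and 2085 CPM in the adult. The adult libraries were highest in both classes. Pygb rose in binucleated cells at both steps (0.80 ± 0.27 and 0.74 ± 0.27, limma adjusted p = 0.0284 and 0.0392), and in mononucleated cells its second step of 0.66 ± 0.27 had a limma adjusted p of 0.0581, or 0.0485 with the replicate number as a block. Both binucleated calls of Pygb were lost under quantile and total count scaling, and the second also without any 1 of the 6 libraries compared. Pygl, the liver form, stood at 107, 128 and 112 at E18.5, 22.7, 28.1 and 22.4 at P7 and 10.5, 7.81 and 8.57 CPM in the adult in mononucleated cells. In binucleated cells Pygl stood at 72.5, 124 and 107 at E18.5, 25.1, 33.1 and 28.6 at P7 and 7.21, 6.60 and 8.50 CPM in the adult. Each age was below the age before it. Pygl fell by −2.25 ± 0.20 and −1.78 ± 0.20 and then by −1.45 ± 0.20 and −1.95 ± 0.20 (limma adjusted p = 4.84e-07, 4.30e-06, 1.78e-05 and 8.64e-07). Per kilobase Pygm made up 53.6% ± 1.33, Pygb 39.3% ± 1.26 and Pygl 7.06% ± 0.892 of the phosphorylases in mononucleated cells at E18.5, and 65.2% ± 2.01, 34.6% ± 1.995 and 0.255% ± 0.0271 in the adult. The ratio of Pygm to Pygl was 5.96-fold higher at P7 than at E18.5 and 6.64-fold higher in the adult than at P7 (exact permutation test, adjusted p = 0.00263 for each). That of Pygm to Pygb rose 1.26-fold from P7 to the adult with overlapping libraries (exact permutation test, adjusted p = 0.00769).

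Glycogen is primed by glycogenin (Gyg), built by synthase (Gys1) and branching enzyme (Gbe1) from the sugar nucleotide made by Ugp2, and its breakdown is switched on by phosphorylase kinase, of which Phka1 is the muscle alpha and Phkb the beta subunit. Gyg fell in the first step by −0.89 ± 0.15 and −0.90 ± 0.15 (limma adjusted p = 5.31e-04 and 2.65e-04) and was not called in the second. Gys1 fell in mononucleated cells by −1.18 ± 0.25 (limma adjusted p = 0.00275) and rose there in the second step by 0.69 ± 0.25 (limma adjusted p = 0.0335, not held under quantile or total count scaling). In binucleated cells its first step was −0.44, or −0.87 without replicate 1 (limma adjusted p = 5.50e-05). Gbe1 was called at no step with all libraries. Without replicate 1 its first step passed in both classes, at −0.58 in mononucleated cells and −0.43 (from 0.00) in binucleated cells (limma adjusted p = 0.00156 and 0.0182). Ugp2 rose in binucleated cells by 0.41 and then in both classes by 0.56 and 0.49. All 3 calls of Ugp2 were lost with quantile normalization, and the first also with total count scaling. Phka1 had 61.3, 61.8 and 64.6 at E18.5, 82.7, 68.8 and 63.4 at P7 and 187, 136 and 138 CPM in the adult in mononucleated cells. In binucleated cells Phka1 had 13.4, 72.8 and 61.2 at E18.5, 86.8, 83.9 and 104 at P7 and 174, 146 and 174 CPM in the adult, with replicate 1 at E18.5 far below its group. Phka1 rose in binucleated cells by 1.22 ± 0.41 in the first step (limma adjusted p = 0.0297), which was 0.45 without replicate 1 (limma adjusted p = 0.0255), and in mononucleated cells by 1.09 ± 0.41 in the second (limma adjusted p = 0.0433, 0.0547 with the block). The first of these calls was lost with total count scaling and without any 1 of the 3 binucleated P7 libraries, and the second with quantile and total count scaling and without any 1 of the 6 libraries compared. Phkb stood at 85.7, 73.4 and 92.2 at E18.5, 145, 141 and 123 at P7 and 164, 128 and 167 CPM in the adult in mononucleated cells. Binucleated Phkb stood at 46.5, 84.7 and 81.3 at E18.5, 119, 135 and 144 at P7 and 172, 150.2 and 192 CPM in the adult. P7 lay above E18.5 in both classes. Phkb rose in the first step by 0.70 ± 0.19 and 0.95 ± 0.19 (limma adjusted p = 0.0163 and 0.00118) and was not called in the second. Its call in mononucleated cells was lost with total count scaling, without replicate 2 of the mononucleated E18.5 group, and without replicate 1 or replicate 2 of the mononucleated P7 group.

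**Figure D4:**
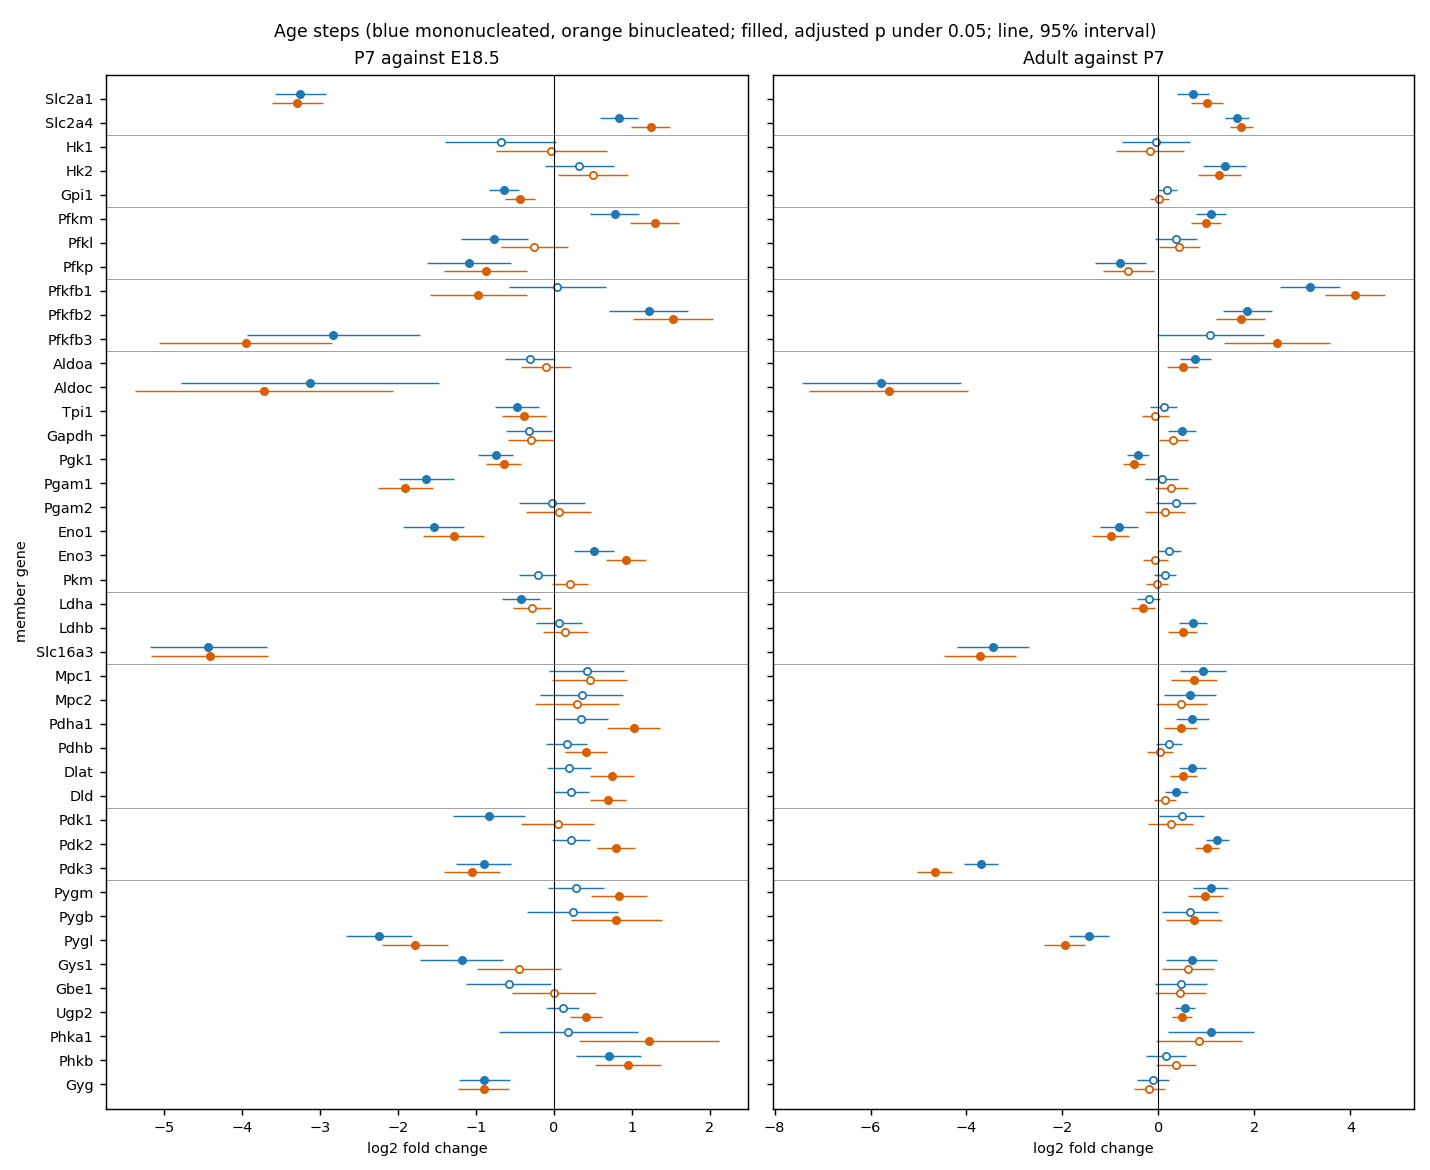
Log2 fold change (x axis) of each of the 42 genes (y axis) from E18.5 to P7 (left) and from P7 to the adult (right), blue for mononucleated and orange for binucleated cells, with 95% intervals as lines and filled points where the limma adjusted p is under 0.05. The longest moves are the falls of Slc16a3, Aldoc, Pfkfb3 and Slc2a1 on the left and of Aldoc, Pdk3 and Slc16a3 on the right, against rises of Pfkfb1 and Pfkfb2.

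Promoter windows are shown for the 4 genes that were lowest in the adult relative to E18.5, Aldoc, Slc16a3, Pdk3 and Pygl, and for Pfkm, which rose at both steps. The genes were chosen after their values were seen. Each window runs from 250 bases before to 50 bases after an annotated start, 300 bases in all, from RefSeq on build GRCm38.p6, read 5′ to 3′ on the gene's strand. Capitals mark ACGTG on either strand, found by exact search. It is a core sequence of the element that hypoxia-inducible factors are known to bind. GCGTG, counted below, is not capitalized and does not enter the matches given for each window. Aldoc and Pfkm have further annotated starts that are not shown, and the window given is that of the first start. The window of the second Aldoc start held 0 matches. Those of Pfkm starts 2, 3 and 4 held 1, 0 and 0.

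Slc16a3, chr11:120948817-120949116, plus strand: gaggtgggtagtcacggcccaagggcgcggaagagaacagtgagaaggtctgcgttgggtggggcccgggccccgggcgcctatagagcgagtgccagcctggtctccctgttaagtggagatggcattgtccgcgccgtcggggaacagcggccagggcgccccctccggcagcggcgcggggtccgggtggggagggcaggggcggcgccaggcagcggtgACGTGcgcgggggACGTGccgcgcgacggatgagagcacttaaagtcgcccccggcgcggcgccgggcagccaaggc

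Aldoc, chr11:78322823-78323122, plus strand: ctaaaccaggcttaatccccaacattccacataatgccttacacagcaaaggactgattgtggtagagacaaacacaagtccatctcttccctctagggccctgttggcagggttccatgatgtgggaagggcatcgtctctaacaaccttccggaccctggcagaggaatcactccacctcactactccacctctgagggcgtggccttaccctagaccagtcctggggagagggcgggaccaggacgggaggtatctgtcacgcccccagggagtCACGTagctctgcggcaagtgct

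Pygl, chr12:70227634-70227933, minus strand: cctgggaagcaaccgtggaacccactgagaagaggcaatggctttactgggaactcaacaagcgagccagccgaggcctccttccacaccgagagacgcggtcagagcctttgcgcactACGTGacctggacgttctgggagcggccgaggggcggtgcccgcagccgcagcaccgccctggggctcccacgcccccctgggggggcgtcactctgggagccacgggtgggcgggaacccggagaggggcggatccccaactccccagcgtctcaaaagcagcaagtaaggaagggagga

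Pdk3, chrX:93832101-93832400, minus strand: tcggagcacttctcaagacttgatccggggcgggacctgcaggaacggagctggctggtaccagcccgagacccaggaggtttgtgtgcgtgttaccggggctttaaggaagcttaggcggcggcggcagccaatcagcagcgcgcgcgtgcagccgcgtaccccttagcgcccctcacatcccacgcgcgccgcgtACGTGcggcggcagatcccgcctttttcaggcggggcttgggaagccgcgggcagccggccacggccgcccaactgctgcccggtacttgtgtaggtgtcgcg

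Pfkm, chr15:98092339-98092638, plus strand: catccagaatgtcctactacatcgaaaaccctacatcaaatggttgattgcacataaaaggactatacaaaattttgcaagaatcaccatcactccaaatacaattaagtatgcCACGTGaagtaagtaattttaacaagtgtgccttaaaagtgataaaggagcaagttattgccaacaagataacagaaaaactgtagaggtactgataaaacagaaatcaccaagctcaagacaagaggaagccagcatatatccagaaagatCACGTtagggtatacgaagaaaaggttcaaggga

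In the windows shown ACGTG occurred 2 times for Slc16a3, 1 time each for Aldoc, Pygl and Pdk3, and 3 times for Pfkm. In that Pfkm window 2 matches are the 2 strands of CACGTG, the palindrome bound by many basic helix-loop-helix factors. Of 62 windows of the 41 genes that have any, 41.94% held ACGTG, against 19.62% of all 32851 windows of that length. CACGTG, which holds ACGTG, was in 9.68% and 7.15%, and GCGTG in 54.84% and 32.39%. The windows set beside them were not limited to genes measured here, nor matched for base composition or level, so these shares show no enrichment of a site. Windows with ACGTG belonged to genes that fell (Slc2a1, Pgk1, Gyg) and to genes that rose (Hk2, Pdk2, Pygm). A match describes these letters and is not a site of binding.

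Between mononucleated and binucleated cells of the same age 1 of the 42 genes was called, Pdk3 in the adult. At E18.5 none of the 42 genes was called by limma, with or without precision weights, where 0.805% of all genes were, and the smallest limma adjusted p was 0.149. At an unadjusted p under 0.05 there were 10 genes, where 13.9% of all genes were. In 12 genes all binucleated libraries lay below all mononucleated ones (background 7.1%) and in 0 above (background 6.91%). Without replicate 1 these counts were 21 and 1, with backgrounds of 15.3% and 13.6%, and 0 genes were called. The median log2 fold change of the 42 was −0.12, and −0.08 without that library, against −0.01 for all genes. Slc2a4 was the nearest to a call (−0.40 ± 0.11, limma adjusted p = 0.149), and it passed without replicate 3 of the binucleated group (−0.49, limma adjusted p = 0.0448). The fibroblast, endothelial, leukocyte and erythroid transcripts given above move with this comparison, and their part in it was not tested. In such sorted bulk samples fewer cells of a type and less RNA per cell cannot be told apart.

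At P7 more of the genes lay higher than lower in binucleated cells. In 18 of the 42 genes every binucleated library lay above every mononucleated one, where 9.84% of all genes did, and in 3 below, where 14.7% did. The genes lower were Pfkp, Pfkfb1 and Aldoc. The median was 0.17 against 0.02 for all genes. None of the 42 was called at P7 by limma, with or without precision weights (2.12% of all genes called), and 5 had an unadjusted p under 0.05, where 10% of all genes did. Without replicate 1 of the binucleated E18.5 group, which narrows the shared estimate of spread, Dld (0.30), Pdha1 (0.30) and Pdk2 (0.24) were called higher in binucleated cells, with limma adjusted p of 0.0302, 0.0165 and 0.037, where 4.76% of all genes were. Scaling by the total count moved the median of all genes in this comparison to −0.08. The summed cardiomyocyte markers were 49863 to 56531 CPM in binucleated and 41546 to 44146 in mononucleated P7 libraries, and their part in the result was not tested. The change in the class difference from E18.5 to P7 was tested as an interaction in limma, and none of the 42 passed, nor with precision weights (background 2.33%). It was positive for 34 of 42, with a median of 0.25 against 0.00 for all genes, and 13 had an unadjusted p under 0.05, where 14.7% of all genes did. Without replicate 1, Pdk2 and Pdha1 passed (limma adjusted p = 0.0172 and 0.0328), with 4.71% of all genes called.

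**Figure D5:**
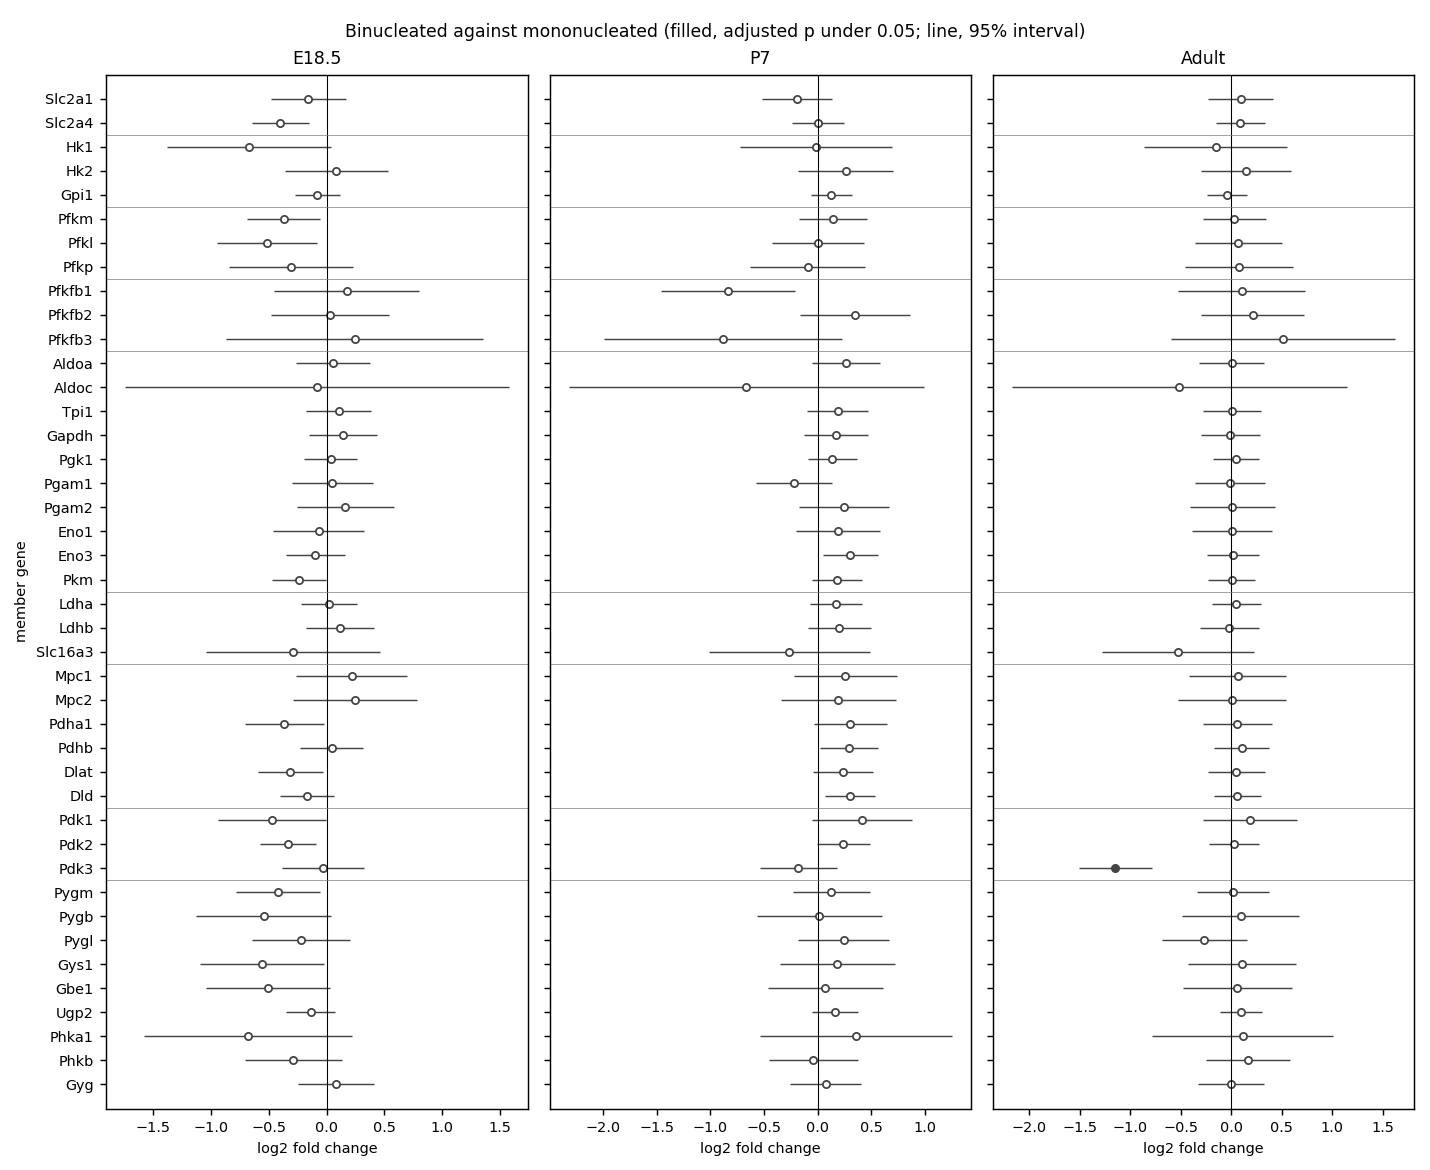
Log2 fold change of binucleated over mononucleated cells (x axis) for each of the 42 genes (y axis) in a panel per age (E18.5, P7, adult), with 95% intervals as lines and filled points where the limma adjusted p is under 0.05. Most points lie left of 0 at E18.5 and right of 0 at P7, and Pdk3 in the adult is the filled point.

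In the adult 1 of the 42 genes was called, Pdk3, where 0.0913% of all genes were. It was lower in binucleated cells by −1.15 ± 0.16 on the log2 scale (limma adjusted p = 0.0118), and the 3 binucleated values given above did not overlap with the mononucleated ones. The call did not stand in every setting. It was lost without replicate 2 of the mononucleated adults (limma adjusted p = 0.0641) and with precision weights or with a fit to the adult groups alone (limma adjusted p above 0.99 for both). The interaction for Pdk3 between P7 and the adult did not pass (−0.97 ± 0.23, limma adjusted p = 0.125, background 0.208%), and neither did any other of the 42 genes. In 3 genes all binucleated adult libraries were above the mononucleated ones (background 2.51%) and in 1, Pdk3, below (background 3.74%). The other 41 genes differed between adult classes by log2 fold changes from −0.53 to 0.51, with a median over all 42 of 0.05. Some ratios of gene pairs parted the classes without overlap both at P7 and in the adult. They were Pdk2 to Pdk3, Hk2 to Hk1 and Mpc2 to Mpc1, of which the last are subunits and not isoforms. At P7 Aldoa to Aldoc, Pfkfb2 to Pfkfb1, Pfkm to Pfkp, Pgam2 to Pgam1 and Slc2a4 to Slc2a1 also parted them, overlapping in the adult. Slc2a4 to Slc2a1 also did so at E18.5, with binucleated minus mononucleated log2 ratios of −0.24 there and 0.20 at P7. Pdk2 to Pdk3 was higher in binucleated cells by 0.42 at P7 and 1.17 in the adult on the log2 scale, and Hk2 to Hk1 by 0.28 and 0.30. Mpc2 to Mpc1 was lower by 0.07 and 0.05. With 3 libraries a class these are descriptions.

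Of 57 further genes of glucose, lactate and glycogen metabolism, 48 were measured. Between E18.5 and P7, 13 rose and 6 fell in mononucleated cells (10.7% and 7.84% of all genes). In binucleated cells 22 rose and 7 fell (18.2% and 17.7% of all genes). From P7 to the adult 23 rose and 8 fell in mononucleated cells (19.1% and 22.3%) and 21 rose and 7 fell in binucleated cells (17.3% and 19.7%). The largest rise was that of Fbp2, the muscle fructose bisphosphatase, which runs against phosphofructokinase. Fbp2 had 0.0427, 0.0765 and 0 at E18.5, 44.9, 56.9 and 74.8 at P7 and 100.5, 134 and 113 CPM in the adult in mononucleated and 0.127, 0.747 and 1.09 at E18.5, 82.3, 72.1 and 102 at P7 and 124, 140.4 and 125 CPM in the adult in binucleated cells. It was called in the first step in both classes, and no fold is given for mononucleated cells because of the few counts there. In binucleated cells the log2 fold change was 7.37. Of the 48 genes it was the 1 called between classes at E18.5, where it was higher in binucleated cells (limma adjusted p = 0.00709). Its E18.5 libraries held 3 counts in mononucleated and 49 in binucleated cells in all. The fitted size of this difference depends on the added offset and is not given. Other large rises of the first step were Gpd1 (2.90), which links glycolysis to glycerol phosphate, Phkg1 (2.67), a phosphorylase kinase subunit, and the malic enzyme Me1 (2.21) in mononucleated cells, and in binucleated cells the D-lactate dehydrogenase Ldhd (4.61) and Gpd1 (3.48). Falls were led by the glucose transporter Slc2a3 (−3.01), pyruvate carboxylase, Pcx (−2.34), and the glycogen-binding Stbd1 (−1.72) in mononucleated cells and by Slc2a3 (−3.71), the neuronal enolase Eno2 (−2.73) and Pcx (−1.95) in binucleated cells. From P7 to the adult the genes that rose included Ldhd (3.42) and Pcx (3.17) in mononucleated cells, and Ldhd (3.71) and Pcx (3.33) in binucleated cells. The largest falls there were Eno2 (−4.54), Slc2a3 (−3.61) and Stbd1 (−2.82) in mononucleated and Eno2 (−3.998) and Stbd1 (−3.02) in binucleated cells. Fitted values of Eno2 and Slc2a3, and the first-step value of Ldhd, rest on few counts at 1 end and depend on the added offset. The binucleated E18.5 libraries held 46 Ldhd counts in all, with a mean of 0.598 ± 0.723 CPM (SD, n = 3). Pdk4, named after its values were seen, is the kinase known to rise when fat is the fuel. It had 82.3, 121 and 147 at E18.5, 669.5, 414 and 356 at P7 and 1847, 3615 and 2090.4 CPM in the adult in mononucleated and 46.9, 104 and 124 at E18.5, 984, 467 and 509 at P7 and 2071, 3858 and 2672 CPM in the adult in binucleated cells. Pdk4 rose at both steps, by 2.02 ± 0.39 and 2.86 ± 0.39 and then by 2.38 ± 0.39 and 2.17 ± 0.39. Pdp2, a phosphatase that switches pyruvate dehydrogenase back on, fell by −1.13 and −0.79 and then rose by 2.59 and 2.43.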

How the data were processed

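The 42 genes, the other lists and the tests were chosen with earlier results of these data known. RNA was extracted with phenol-chloroform and RNeasy columns, and libraries were made with a stranded mRNA kit and an amplification kit, per the labels' protocols; STAR, limma and build mm9 are named in the submitters' processing notes, with no versions, counter or annotation. The authors deposited log2 values of whole counts plus 0.5, scaled by 1 factor per library, with a constant that no source states. Counts recovered from them lay within 1e-08 of whole numbers, and CPM here were scaled by the deposited factors, with the constant set so that effective and recovered totals have the same geometric mean. Because the deposited unit is log2, no count model was run.

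Symbols came from GENCODE M21 for 11927 of 12048 identifiers (121 had none), and levels per kilobase use the longest principal coding transcript there. limma 3.58.1 (R 4.3.3) was fitted to the deposited log2 values with 6 group means and an intensity trend, with two-sided p-values adjusted over all 12048 genes, and was checked on simulated data. Isoform ratios used log2 of recovered counts plus 0.5 and an exact permutation test (scipy 1.17.1). Values in every library are given for the genes of the 15 pairs and for up to 6 called genes in each direction per comparison. Replicates of a group differed beyond sampling noise. Same-numbered libraries deviated together at P7 (correlations 0.182, 0.191 and 0.236) and in the adult (0.261, 0.264 and 0.327) and less so at E18.5 (0.088, 0.054 and 0.158, against −0.095 to 0.002 for libraries with different numbers), so a replicate block was tried as an alternative. Intervals on counts cover counting error only, as amplified reads are not independent molecules. Some genes past the threshold are not reported here by name, though they enter the counts.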

Additional observations from a re-analysis of the deposited data

Results flagged for a closer look

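Among the 6 libraries of an age, 45 sets of isoform ratios were searched for a library that lies far from the others, and 6 were found, where chance alone finds about 1 in 20. All 6 were replicate 1 of the binucleated E18.5 group, and all are log2 ratios of counts. Hk2 to Hk1 was −0.83 in it and −3.11 to −2.77 in the other 5 libraries. Ldhb to Ldha was −0.59 against −0.87 to −0.84, and Pdk2 to Pdk1 was −0.27 against −0.89 to −0.72. Pgam2 to Pgam1 was 3.31 against 2.44 to 2.69. Aldoa to Aldoc was 5.80 against 5.08 to 5.32, and Pygm to Pygb was 0.53 against −0.08 to 0.09. The library had the lowest total count, and its deviation ran with transcript length, as given with the depths. Whether this bears on the 6 ratios was not tested.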

How the results depend on the processing

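Of the counts of genes called, 79 of 83 under other settings and 156 of 162 without a library lay within 1.5 times the value given, as did all counts of isoform pairs. In the adult, Pdk3 was lost (0 called) with voom weights and with a fit to the 2 groups alone. In binucleated cells the fit to the 2 groups also lost the first step of Ugp2, Pfkp, Pdhb, Tpi1, Pfkfb1, Pygm, Pygb, Phka1 and Gpi1. Voom weights lost that of Pfkfb1 there. Without the binucleated E18.5 group, an alternative added after the data were seen, 2 genes (Dld, Pdha1) were called between classes at P7. Median centring gave 1 interaction between E18.5 and P7 (Pdk2). Leaving out each library in turn gave 0 to 1 genes between classes at E18.5, 0 to 3 at P7 and 0 to 1 in the adult, 19 to 34 and 24 to 35 for P7 against E18.5 in mononucleated and binucleated cells, 22 to 34 and 20 to 31 for the adult against P7, and 0 to 2 and 0 interactions. Of all 12048 genes, the same fits called 79 to 282, 129 to 574, 2 to 23, 1628 to 3901, 3314 to 5036, 4196 to 6484, 3693 to 6061, 160 to 568 and 0 to 102, in the same order. Pairs called were 13 to 15, 13 and 14 in turn. The highest counts for P7 against E18.5 and for P7 and its interaction came without replicate 1 of the binucleated E18.5 group, the 1 at E18.5 (Slc2a4) without its replicate 3, and the 0 in the adult without replicate 2 of the mononucleated adults. With quantile normalization the adult against P7 sign reversed for Dld (−0.19), Gapdh (−0.092), Mdh1 (−0.22), Bsg (−0.056) and Got2 (−0.013) in mononucleated and Pgm1 (−0.018) in binucleated cells; the cause was not tested. With the replicate block, 25 genes were called for the adult against P7 in mononucleated cells (26 without it; Mpc2 and Phka1 lost, Pygb gained), and 13 pairs between E18.5 and the adult in place of 14; it changed no other count. Besides the losses given with the genes, leaving out 1 library lost the first step of Tpi1 (each class) and Ldha (mononucleated) and of Pdhb (binucleated), and the second of Pfkp, Gys1, Mpc2 and Dld (mononucleated) and Ldha (binucleated). Of single genes called, 128 of 1793 results lost their call under other settings and 210 of 3744 without a library. Leaving out the genes of lowest mean kept 40 of the 42. Within 1 class the pair test (3 against 3) cannot pass, so no count is given. Depth limits Aldoc and Slc16a3 in the adult and Pfkfb3 at P7.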
